A study of Mus musculus with 3 samples.

Results

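DNA replication and mitosis genes were examined in mouse osteocytic cells treated with parathyroid hormone (PTH). The set holds 53 genes given by symbol, all 53 of them among the 25410 symbols of the deposited count tables. They fall by role into 12 genes of the G1/S transition (cyclins, cyclin-dependent kinases and the E2F and Rb proteins), 19 genes of replication licensing and DNA synthesis, and 22 mitotic genes. One group of 3 biological replicates was sequenced by RNA-seq: IDG-SW3 cells differentiated for 35 days and exposed to 100 nM PTH for the last 24 h. IDG-SW3 is an immortalized line that carries a conditional T antigen, kept active during expansion by interferon-gamma and a reduced temperature, and the cells were then differentiated at body temperature in osteogenic medium without interferon-gamma. The replicates come from 1 line, and vehicle-treated libraries were not used here. No response of these genes to PTH could be measured, and what follows is their level in treated cells, its spread between libraries, and the levels of related genes set against each other.

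A dividing cell passes from G1 into DNA synthesis when D-type cyclins with Cdk4 or Cdk6, and then E-type cyclins with Cdk2, phosphorylate the Rb protein and free E2F transcription factors. E2F factors switch on the genes that license origins and copy DNA, and a later wave of transcription, in which FoxM1 and the MuvB complexes take part, supplies the proteins that build the spindle and separate chromosomes. Osteocytes in bone are cells that have left the cell cycle, and SV40 T antigen binds and inactivates Rb family proteins. T antigen itself was not analysed here.

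The libraries held 35195518, 37299517 and 45240005 counts in replicates 1, 2 and 3. Across symbols, the log2 CPM (counts per 1000000 counts of the library) of pairs of libraries correlated with Pearson's r of 0.948 to 0.958. The osteoblast and osteocyte markers summed to between 12030 and 13450 RPKM per library. Of these 12, 9 were above 1 RPKM, beside 39.4% of all 23048 genes with a length. The osteocyte markers Phex and Pdpn had 2229, 2036 and 2358 counts and 7026, 6181 and 10715 counts, whereas Dmp1 had 77, 115 and 6 counts and Sost 2, 0 and 0 counts. Leukocyte markers summed to between 12.96 and 14.9 RPKM, nearly all from Lyz2, with Csf1r at 17, 16 and 47 counts and Cd3e at 6, 2 and 0 counts. Endothelial markers summed to between 3.54 and 4.13 RPKM, mostly Kdr, with Cdh5 at 20, 36 and 0 counts. Adipocyte markers summed to between 11.1 and 17.3 RPKM, mostly Fabp4, with Adipoq at 94, 31 and 172 counts. Itgam, Pecam1, Emcn and Plin1 were listed at 0, and Ptprc had 0, 1 and 0 counts, but each of these 5 has 2 rows in the tables, and such values are not read as absence.

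RPKM here is the count per kilobase of transcript and per 1000000 counts of the library. In 1 fit over all genes, edgeR's quasi-likelihood test set each level against 1 RPKM (two-sided), and a gene is called above or below where the adjusted p was under 0.05 and unresolved otherwise. Of the 53 members, 34 were above and 3 below, 13 could not be resolved, and 3 had no count in any library. Of all 21012 genes tested, 43.2% were above and 9.88% below. DESeq2 called 33 members above and 10 below, beside 42.6% and 30.9% of all genes, and limma also called 33 above and 10 below, beside 42.5% and 45.7%. The members' median level was 2.28 RPKM, against 0.497 RPKM for all 23048 genes with a length. Because the levels come from bulk RNA, a small number of cycling cells and a low level in many cells cannot be told apart.

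The deposited tables give some symbols several rows, and 11 members are among them. Ccnd3, Ccne2, Cdk2, Cdc6, Tyms, Bub1, Birc5, Kif20a, Nusap1, Tpx2 and Ttk have from 2 to 5 rows each, and 0 of the 8 with a count in any library were above 1 RPKM, beside 24.9% of the tested symbols with several rows (15.7% were below). Symbols with several rows were often low throughout the tables: 32.2% of them were at 0 in all 3 libraries, against 5.8% of symbols with 1 row. A low value of these 11 members is therefore not read as a low level of the gene. Among the 42 members with 1 row, 34 were above, 3 were below and 5 were unresolved, with a median of 3.17 RPKM, beside 45.4% above and 9.19% below among all tested genes with 1 row and a median of 0.694 RPKM.

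**Figure D1:**
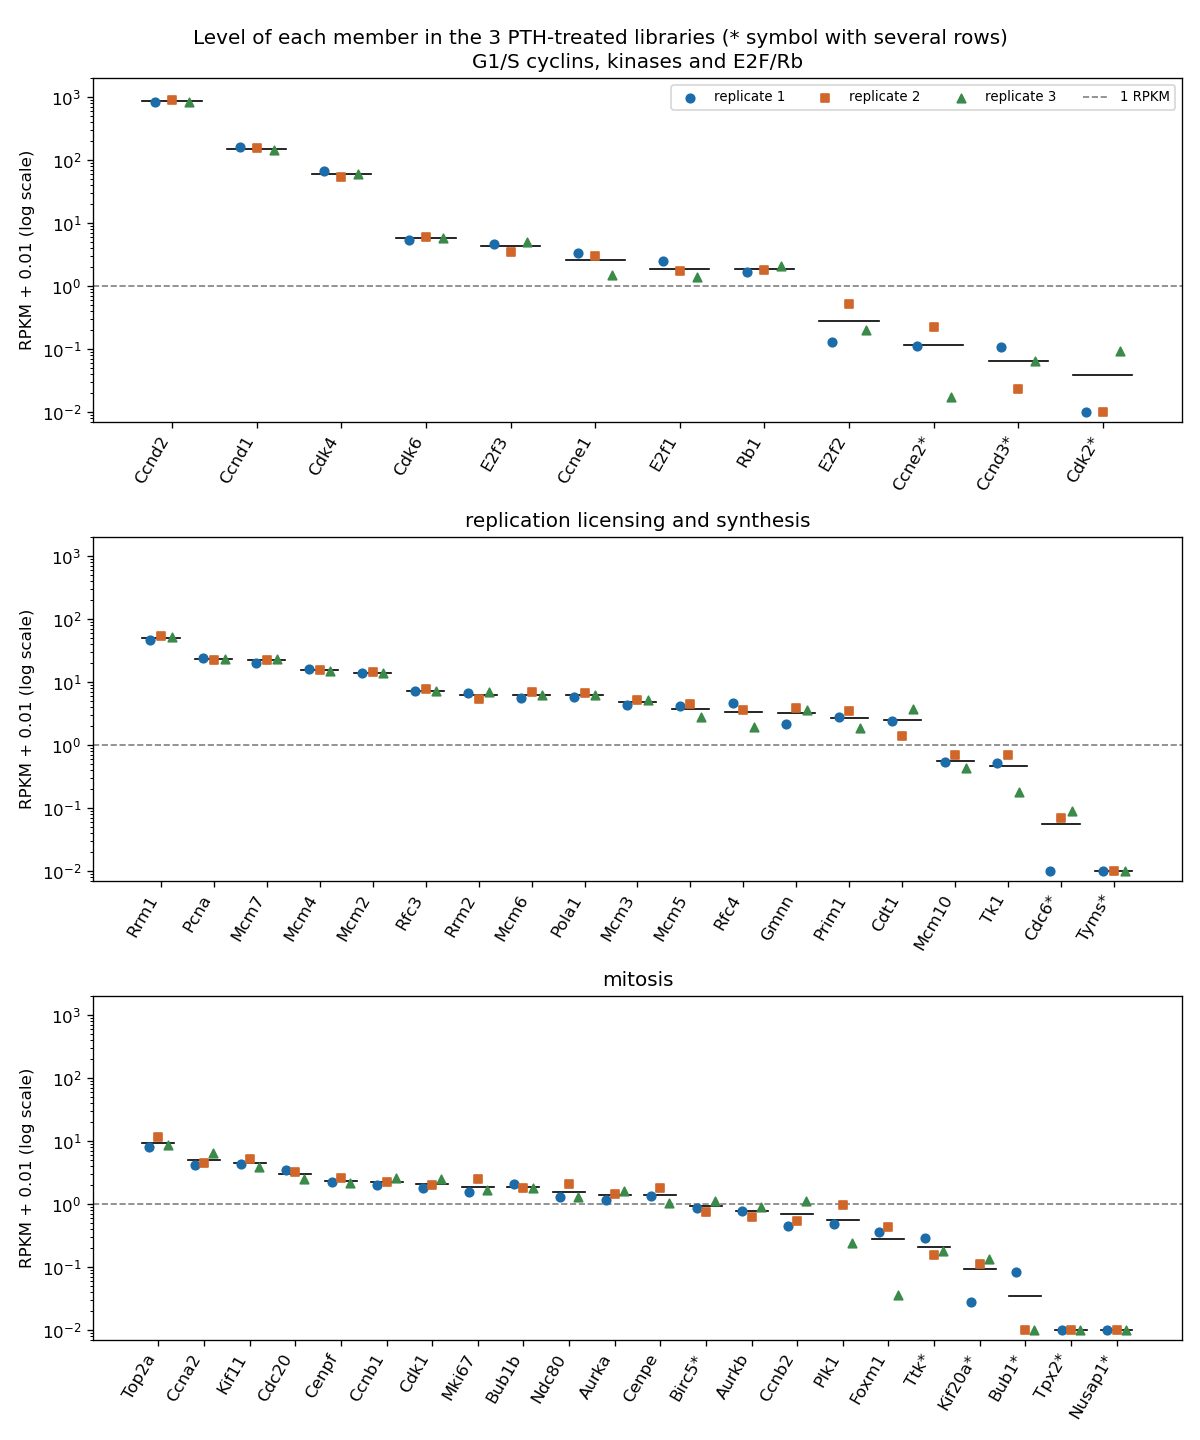
Level of each member in each library, as RPKM plus 0.01 on a log axis, in 3 panels by role; points are the 3 PTH-treated replicates, black bars their mean, the dashed line 1 RPKM, and asterisks mark symbols with several rows. Ccnd2, Ccnd1 and Cdk4 lead the first panel at 863 (137 with its longest transcript), 154 and 61.0 RPKM, Rrm1 the second at 51.1 RPKM and Top2a the third at 9.45 RPKM.

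E2F factors and the regulators of mitotic genes are known to read short letter patterns near gene starts, which were looked for in the members' promoters. RefSeq promoter windows (build GRCm38.p6, 250 bases before to 50 after the start) were found for 42 of 53 members, in 46 windows. The E2F-type letters searched were TTTCCCGC, TTTCGCGC, TTTGCCGC and TTTGGCGC, the CHR-type letters (cell cycle genes homology region, bound by MuvB complexes) were TTTGAA and TTCGAA, and the NF-Y box was CCAAT, each on both strands. E2F-type letters stood in 44.4% of the windows of replication genes and 5.88% of those of mitotic genes, against 2.26% of all 32851 windows. CHR-type letters stood in 16.7% of replication windows and 76.5% of mitotic windows, against 19.2% of all windows. A CCAAT was present in 72.2% of replication windows and 82.4% of mitotic windows, against 37.4% of all windows. Both CCAAT and CHR-type letters stood in 12 of 17 mitotic windows (70.6%), against 7.52% of all windows. G1/S genes had E2F-type letters in 3 of 11 windows, CHR-type letters in 2 and CCAAT in 5. These windows belong to 8 of the 12 G1/S genes, with 2 windows each for Ccnd3, E2f2 and E2f3. No window was found for Ccnd1, Ccnd2, Ccne2 or Rb1. A match of letters is a description and does not show that a factor bound there.

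For each role, the window of the member with the highest mean RPKM among those that hold an E2F-type match beside a CHR-type or CCAAT match is shown, from 5′ to 3′ on the gene's strand, with matches in capitals. The E2f3 window is chr13:29986014-29986313, the Mcm7 window chr5:138171834-138172133 and the Cdk1 window chr10:69352863-69353162, all on the minus strand of GRCm38.p6. In E2f3 the E2F-type match begins 11 bases and the CHR-type match 23 bases upstream of the start. Mcm7 has 2 E2F-type matches, 1 of which begins 16 bases downstream of the start and overlaps a CCAAT. Cdk1 has an E2F-type match beginning 131 bases upstream and 2 CHR-type matches beginning 71 and 15 bases upstream.
E2f3: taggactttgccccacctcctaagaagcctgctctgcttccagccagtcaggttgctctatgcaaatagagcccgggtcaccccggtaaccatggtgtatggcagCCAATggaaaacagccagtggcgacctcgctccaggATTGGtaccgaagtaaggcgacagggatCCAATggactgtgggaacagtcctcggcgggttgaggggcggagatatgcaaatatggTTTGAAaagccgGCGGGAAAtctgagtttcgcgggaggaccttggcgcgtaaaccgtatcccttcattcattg
Mcm7: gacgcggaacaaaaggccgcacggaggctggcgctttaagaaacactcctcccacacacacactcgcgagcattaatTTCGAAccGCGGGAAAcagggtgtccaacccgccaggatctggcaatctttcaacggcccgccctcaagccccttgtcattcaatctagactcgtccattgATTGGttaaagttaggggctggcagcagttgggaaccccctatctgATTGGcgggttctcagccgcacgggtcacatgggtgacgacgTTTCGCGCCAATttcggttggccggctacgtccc
Cdk1: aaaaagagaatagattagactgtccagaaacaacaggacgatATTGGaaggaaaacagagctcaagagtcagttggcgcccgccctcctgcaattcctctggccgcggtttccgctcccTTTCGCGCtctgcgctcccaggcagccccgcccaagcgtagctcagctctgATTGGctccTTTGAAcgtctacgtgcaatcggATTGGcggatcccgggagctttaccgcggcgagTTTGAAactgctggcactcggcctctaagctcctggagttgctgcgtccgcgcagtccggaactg

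Among the G1/S genes, the D-type cyclin genes Ccnd2 and Ccnd1 and the kinase gene Cdk4 stood far above the others. Ccnd2 and Ccnd1, which encode the cyclins that carry growth signals to Cdk4 and Cdk6, together took 63.4%, 62.5% and 62.1% of all member counts in replicates 1, 2 and 3. Ccnd2 had 841, 907 and 857 CPM. Its level per length depends on the transcript: it was 863 ± 34.5 RPKM (SD, n = 3 here and below) with the median annotated length of 1006 bases and 137 ± 5.48 RPKM with the longest transcript of 6330 bases. Ccnd1 had 604, 583 and 538 CPM, and 154 ± 8.97 RPKM. The log2 ratio of Ccnd2 over Ccnd1 was accordingly 2.49 ± 0.10 with the median length and −0.16 with the longest, so the order of the 2 cyclins is not settled. Both lay above 1 RPKM with either length. Ccnd3, the third D-type cyclin, was listed with 7, 1 and 5 counts over 3 rows.

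Cdk6, a kinase partner of the D-type cyclins, had 5.50, 6.15 and 5.90 RPKM. The related kinase Cdk4 had 69.0, 53.9 and 60.2 RPKM, and the values of the 2 kinases did not overlap. With the longest and shortest transcripts Cdk6 averaged 3.55 and 16.6 RPKM, and Cdk4 41.1 and 118 RPKM. Mean RPKM falls over 1.5 times with the longest transcript for 4 members (Ccnd2, Cdk6, Cdk1 and Birc5). It grows over 1.5 times with the shortest for 8 (Ccnd3, Cdk4, Cdk6, Mcm7, Ccnb1, Cdk1, Birc5 and Foxm1). Within libraries the log2 ratio of Cdk6 over Cdk4 was −3.36 ± 0.26, with a range of −3.49 to −2.82 over the longest and shortest transcripts. The kinase of the next step, Cdk2, was listed with 0, 0 and 9 counts over 2 rows. Its cyclin partner Ccne1 had 3.38, 3.03 and 1.48 RPKM and was above the threshold (edgeR adjusted p = 1.2e-08). Replicate 3 was the lowest for Ccne1, with a coefficient of variation (CV) of 38.4%, which is the largest among the G1/S genes with a mean count of 100 or more. Ccne2, which has 2 rows, had 11, 24 and 1 counts.

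Of the E2F and Rb genes, E2f1, E2f3 and Rb1 were above 1 RPKM and E2f2 was below. E2f1, the founding activator of the family, had 2.55, 1.71 and 1.41 RPKM. E2f3, another activating E2F, had 4.61, 3.52 and 5.08 RPKM, and the log2 ratio of E2f1 over E2f3 was −1.20 ± 0.51. Values of E2f2, a further activator, were 0.120, 0.509 and 0.196 RPKM, and the gene was below 1 RPKM (edgeR adjusted p = 0.00905). The call of E2f2 was lost without replicate 2 (edgeR adjusted p = 0.109), and its log2 level against 1 RPKM was −1.86 with all libraries and −2.66 without that one. Rb1, the retinoblastoma protein gene that holds E2F in check, had 1.68, 1.80 and 2.12 RPKM and was above the threshold (edgeR adjusted p = 7.67e-07). Of the 12 G1/S genes, 8 were above (66.7%), 1 was below and 3, each with several rows, were unresolved. Among all 23048 genes with a length, 39.4% were above.

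Licensing genes load the replicative helicase onto origins, and the helicase subunits Mcm2 to Mcm7 were each above 1 RPKM. Mcm7 had the highest level, with 20.4, 22.8 and 23.7 RPKM. Mcm4 had 16.4, 15.4 and 15.0 RPKM, and Mcm2 had 14.0, 14.6 and 13.8 RPKM. Mcm6, Mcm3 and Mcm5 formed a lower set that lay apart from the first 3 in each library. Mcm6 had 5.62, 7.08 and 6.20 RPKM, Mcm3 had 4.30, 5.14 and 5.31 RPKM, and Mcm5 had 4.16, 4.55 and 2.77 RPKM. Although the 6 proteins work as 1 hexamer, their transcripts spanned a 5.83-fold range of mean RPKM with the median lengths, 5.41-fold with the longest and 9.14-fold with the shortest. The log2 ratio over Mcm3 was 2.16 ± 0.05 for Mcm7, 1.65 ± 0.23 for Mcm4 and 1.51 ± 0.16 for Mcm2. For Mcm7 it was 1.71 with the longest and 2.83 with the shortest transcripts. For Mcm6 it was 0.35 ± 0.12, and 0.09 with the longest transcripts. For Mcm5 it was −0.38 ± 0.47, less than the spread between libraries. Mcm10, which helps to activate the loaded helicase, had 0.537, 0.693 and 0.428 RPKM and was below 1 RPKM (edgeR adjusted p = 0.0379), a call that did not hold with any 1 library left out (edgeR adjusted p = 0.125, 0.105 and 0.101 without replicates 1, 2 and 3), with limma (adjusted p = 0.061) or with the shortest transcript (edgeR adjusted p = 0.133).

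Loading of the helicase is driven by Cdt1 and held back by geminin. Gmnn, which encodes geminin, the inhibitor of Cdt1, had 2.20, 3.95 and 3.66 RPKM. Cdt1, the loading factor, had 2.43, 1.40 and 3.74 RPKM, with the widest spread of any replication gene with a mean count of 100 or more (CV 46.5%). Both were above 1 RPKM (edgeR adjusted p = 3.31e-09 for Gmnn and 4.16e-08 for Cdt1). The log2 ratio of Gmnn over Cdt1 was 0.42 ± 0.88, less than its spread, and −0.08 without replicate 2. Cdc6, which recruits Cdt1 to origins, had 0, 8 and 13 counts over 2 rows.

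Among the genes of DNA synthesis, Rrm1, Pcna, Rfc3 and Pola1 were steady between libraries, with CVs of 4.13% to 6.44%. The CVs of Rrm2, Prim1 and Rfc4 were larger, at 14.1%, 29.1% and 39.7%. Rrm2, the small subunit of ribonucleotide reductase, which limits the enzyme in cycling cells, had 6.72, 5.36 and 7.05 RPKM. The large subunit Rrm1 had 47.6, 53.7 and 51.9 RPKM, and the log2 ratio of Rrm2 over Rrm1 was −2.99 ± 0.27. Pcna, the sliding clamp of the replicative polymerases, had 24.3, 22.2 and 23.7 RPKM. Pcna has 2 named pseudogenes, and how reads that match several places were counted is not given, so its value may hold or lack shared reads. Rfc4, a subunit of the clamp loader, had 4.60, 3.64 and 1.94 RPKM, lowest in replicate 3, whereas the subunit gene Rfc3 had 7.14, 7.74 and 7.32 RPKM. The log2 ratio of Rfc4 over Rfc3 was −1.19 ± 0.63.

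The primase gene Prim1, which makes the RNA primer of each new strand, had 2.81, 3.46 and 1.89 RPKM. Pola1, the catalytic subunit of the polymerase that extends the primer, had 5.91, 6.70 and 6.19 RPKM, and the log2 ratio of Prim1 over Pola1 was −1.22 ± 0.39. Tk1, the thymidine kinase of cycling cells, had 26, 37 and 11 counts and 0.457 ± 0.26 RPKM, and was unresolved (edgeR adjusted p = 0.171). The limma test called it below 1 RPKM (limma adjusted p = 0.0352). Tyms, which makes thymidylate, was listed at 0 in all 3 libraries over 2 rows. By counting error alone, a count of 0 allows up to 3 counts, an upper limit of 0.0210 to 0.0270 RPKM depending on library depth. With its 2 rows, this limit is not read as a limit on the level of Tyms. Of the 19 replication genes, 15 were above (78.9%, beside 39.4% of all 23048 genes with a length), 1 was below, 2 were unresolved and 1 was at 0.

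**Figure D2:**
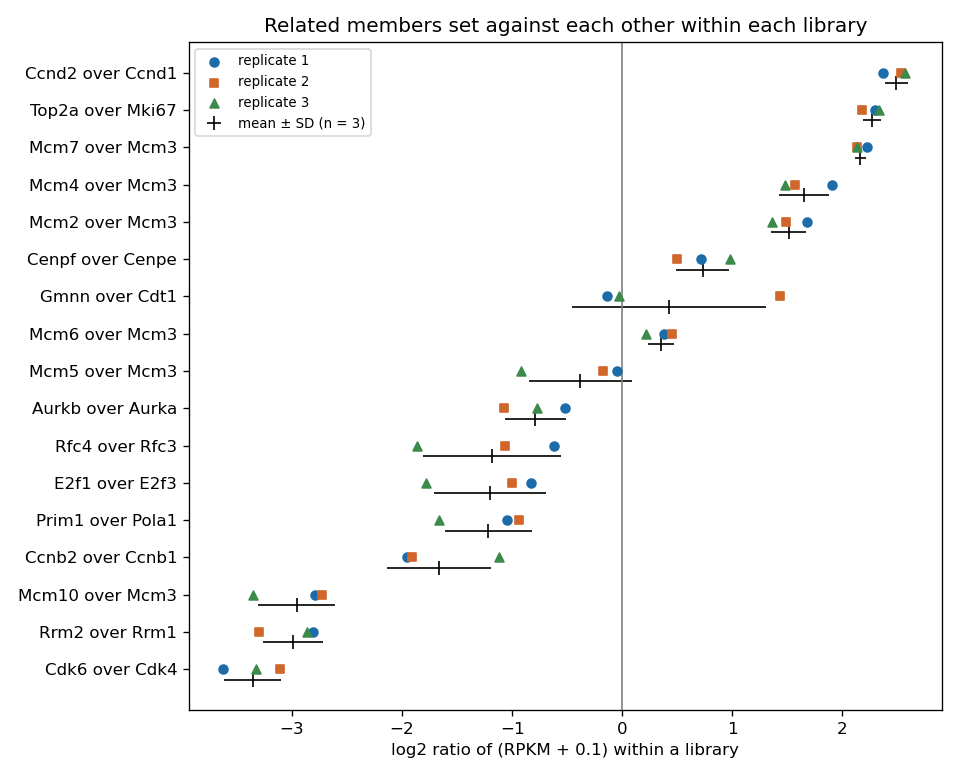
Log2 ratio of RPKM + 0.1 between related members within each library, for the 17 pairs in which both genes have 1 row; colored points are the 3 replicates and black marks the mean ± SD. Cdk6 over Cdk4 lies lowest at −3.36 and Ccnd2 over Ccnd1 highest at 2.49 with the median transcript length, whereas it is −0.16 with the longest; Gmnn over Cdt1 spans 0.

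In all, 24 pairs of related members were set against each other, 17 of them with 1 row for both genes. In 16 of these 17 the ratio had the same sign in 3 of 3 libraries, and in 14 its mean was over 2 SD from 0. Pairs of other genes were not counted in this way, so these counts are not read as particular to related members. With 3 libraries the smallest p of the exact two-sided sign-flip permutation test is 0.25, so none of the pairs could pass a threshold before or after adjustment. The ratios also rest on one length per gene, which all libraries share.

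The mitotic genes had the lowest median of the 3 roles, with 1.90 RPKM over the 16 members with 1 row, against 6.26 RPKM for 17 replication genes and 4.40 RPKM for 9 G1/S genes. Top2a, the topoisomerase that untangles sister chromatids, had the highest level, with 8.03, 11.5 and 8.82 RPKM. The proliferation marker Mki67 had 1.56, 2.47 and 1.67 RPKM, and the log2 ratio of Top2a over Mki67 was 2.27 ± 0.08. Both were highest in replicate 2. Ccna2, the cyclin of late S phase and mitotic entry, had 4.25, 4.59 and 6.43 RPKM, highest in replicate 3. Cdk1, the kinase that drives mitotic entry, had 1.78, 2.03 and 2.55 RPKM, again highest in replicate 3. With the longest and shortest transcripts the mean of Cdk1 was 1.36 and 4.76 RPKM.

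Of the B-type cyclins that activate Cdk1, Ccnb2 had 24, 30 and 78 counts, which is 0.445, 0.525 and 1.13 RPKM, and was unresolved (edgeR adjusted p = 0.348). Ccnb1 had 2.02, 2.26 and 2.56 RPKM and was above the threshold (edgeR adjusted p = 2.89e-07). The log2 ratio of Ccnb2 over Ccnb1 was −1.66 ± 0.47, and −2.49 with the shortest transcripts. Ccnb1 and Ccnb2 have a named pseudogene each. Foxm1, the transcription factor that turns on many mitotic genes, had 42, 55 and 4 counts, or 0.347, 0.429 and 0.0257 RPKM, and was below 1 RPKM (edgeR adjusted p = 0.0361). With replicate 1 or replicate 2 left out, Foxm1 was unresolved (edgeR adjusted p = 0.0946 and 0.188), and its log2 level against 1 RPKM was −2.14 and −2.43, beside −1.91 with all libraries. The call was also lost with the shortest transcript and with row means (edgeR adjusted p = 0.123 and 0.0504). Foxm1 also shares exon bases with 2 annotated genes on its own strand.

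The spindle, kinetochore and checkpoint genes described here, each with 1 row, averaged between 1.39 RPKM for Cenpe and 4.48 RPKM for Kif11. Kif11, the kinesin that pushes spindle poles apart, had 4.30, 5.28 and 3.87 RPKM. Cenpf and Cenpe, large kinetochore proteins, averaged 2.32 ± 0.26 and 1.39 ± 0.40 RPKM, with a log2 ratio of Cenpf over Cenpe of 0.73 ± 0.24. The kinetochore subunit gene Ndc80 had 1.31, 2.08 and 1.30 RPKM. Cenpe and Ndc80 were above 1 RPKM (edgeR adjusted p = 0.00526 and 0.0253), and both calls were lost without replicate 2 (edgeR adjusted p = 0.322 and 0.34). Cenpe was also unresolved with limma (limma adjusted p = 0.159), and Ndc80 with DESeq2 (DESeq2 adjusted p = 0.0561). Bub1b, a checkpoint protein that holds cells until chromosomes are attached, had 2.10, 1.79 and 1.81 RPKM. Cdc20, which ends that hold by activating the anaphase-promoting complex, had 3.47, 3.23 and 2.48 RPKM, and both genes were above 1 RPKM (edgeR adjusted p = 2.19e-06 for Bub1b and 1.6e-11 for Cdc20).

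The Aurora kinases and Plk1 could not be resolved against 1 RPKM. Aurkb, which acts at centromeres, had 0.782, 0.624 and 0.889 RPKM, and Aurka, which acts at spindle poles, had 1.16, 1.42 and 1.59 RPKM. Neither was resolved (edgeR adjusted p = 0.389 and 0.12), and their values did not overlap. The log2 ratio of Aurkb over Aurka was −0.79 ± 0.28. Plk1, which acts through much of mitosis, had 37, 80 and 23 counts, or 0.478, 0.975 and 0.231 RPKM, and was unresolved (edgeR adjusted p = 0.148).

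Birc5, which encodes survivin, a partner of Aurkb, had 66, 59 and 109 counts, all in 1 of its 2 rows. Its mean was 0.914 ± 0.20 RPKM, unresolved with the median length (edgeR adjusted p = 0.727) but above with the shortest transcript (edgeR adjusted p = 0.00321). The checkpoint kinase genes Ttk, with 28, 15 and 22 counts, and Bub1, with 9, 0 and 0 counts, were unresolved and have 2 rows each. Kif20a, a kinesin of cell division, had 2, 12 and 18 counts over 3 rows. The spindle protein genes Nusap1, with 2 rows, and Tpx2, with 5 rows, were at 0 in all 3 libraries. By counting error alone, the upper limit was 0.0204 to 0.0263 RPKM for Nusap1 and 0.0170 to 0.0218 RPKM for Tpx2, depending on library depth. Because both have several rows, these limits are not read as limits on the level of either gene. Of the 22 mitotic genes, 11 were above, 1 was below, 8 were unresolved and 2 were at 0. The share above was thus 50.0%, beside 39.4% of all 23048 genes with a length.

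**Figure D3:**
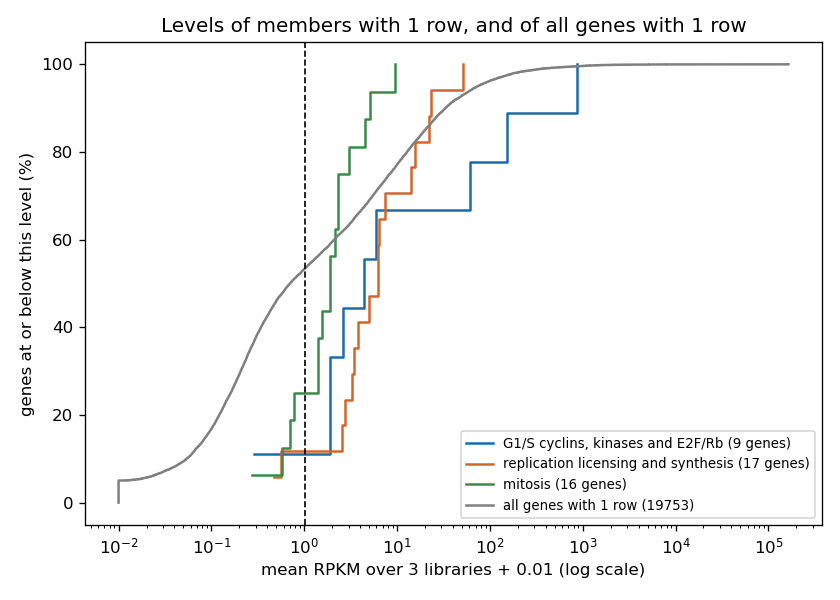
Cumulative share of genes (percent) against mean RPKM plus 0.01 on a log axis, for members with 1 row in the 3 roles and for all 19753 genes with 1 row; the dashed line marks 1 RPKM. The mitotic genes end at 9.45 RPKM and the replication genes at 51.1 RPKM, while the G1/S genes reach 863 RPKM with Ccnd2, which is at 137 RPKM with its longest transcript.

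For 34 of the 35 members with a mean count of 100 or more, the CV of CPM between libraries was above that of counting error. The same held for 9660 of 10203 symbols at that count, so such spread is not particular to the members. The median CV was 14.1%, against 11.7% for 10203 symbols at that count, where counting error gives medians of 4.26% and 3.32%. It was 12.3% for 8 G1/S genes, 11.0% for 15 replication genes and 17.8% for 12 mitotic genes. The steadiest member was Mcm2, with a CV of 2.86%. Replicate 2 was the highest library for 16 of 35 members (45.7%), against 27.4% of all symbols. In the mitotic group the summed CPM was 160, 203 and 166 in replicates 1, 2 and 3, and in the replication group it was 498, 534 and 519. The members did not move as one: Ccna2, Cdk1, Ccnb1 and Aurka were highest in replicate 3, whereas Cenpe, Kif11 and Cdc20 were lowest there.

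**Figure D4:**
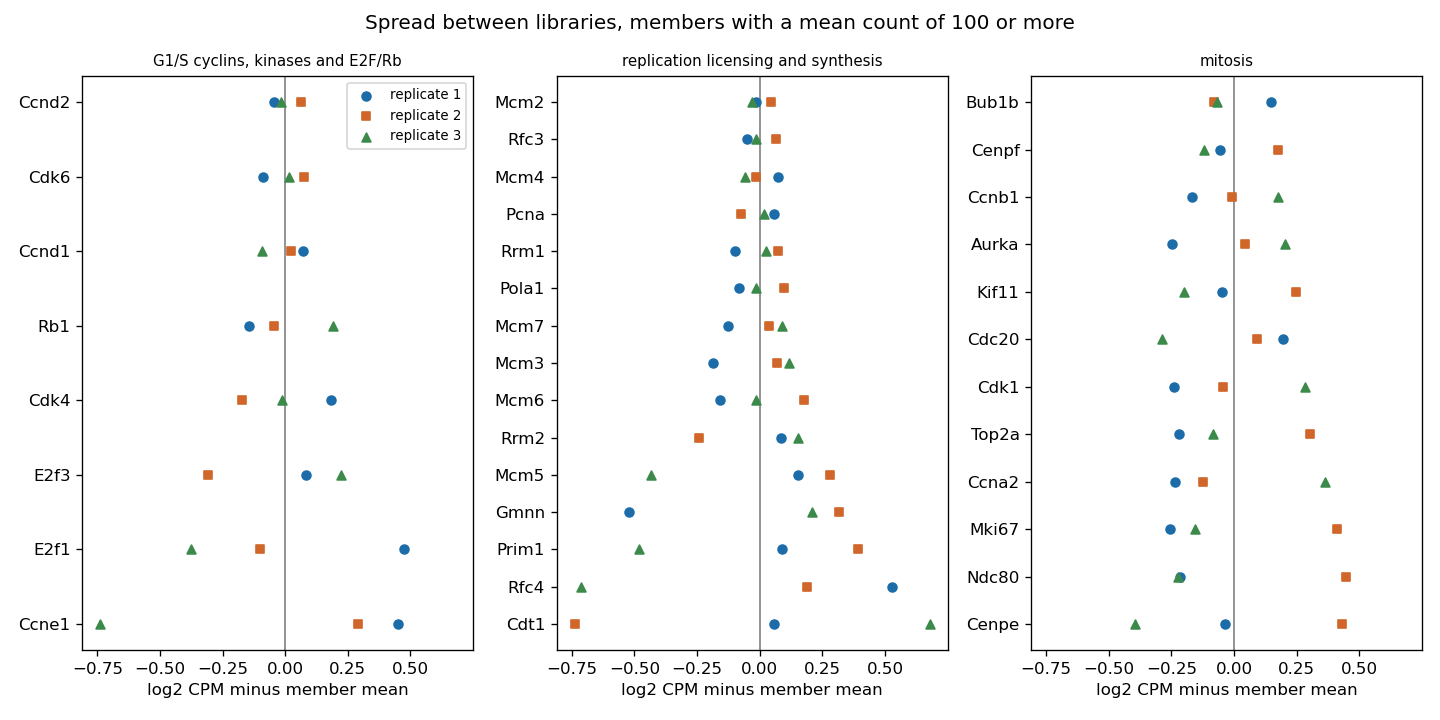
Deviation of each library's log2 CPM from the member's mean over the 3 replicates, for 35 members with a mean count of 100 or more in 3 panels by role, from the least variable at the top. The largest spreads are those of Cdt1 (CV 46.5%), Rfc4 (39.7%) and Ccne1 (38.4%), and different members have different libraries as their highest.

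Strand matters for some of these values, because the libraries preserve strand but the counting's use of it is not given. In the GENCODE annotation, 15 members share exon bases with a gene on the opposite strand. They include Ccnd1, Ccnd2, Cdk4, which overlaps Tspan31, and Mcm7, the highest of the helicase subunits, which overlaps Ap4m1 and Cops6. Also among them are Rfc4, which overlaps Eif4a2, and Ccna2, which overlaps Exosc9. If strand was not used, reads of member and partner cannot be told apart, and the part of the partners in these values was not tested.

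Further genes of the same pathways were taken from fixed lists. Of 33 other replication genes, 21 were above 1 RPKM (63.6%), 1 was below, 7 were unresolved and 4, each with several rows, were at 0. Their median was 2.39 RPKM. For comparison, 39.4% of all 23048 genes with a length were above. The highest were the origin recognition gene Orc2 (listed as Orc2l) at 20.7 ± 0.64 RPKM, the helicase cofactor Gins4 at 20.3 ± 0.72 and the clamp loader gene Rfc1 at 19.3 ± 1.68. Orc1 (listed as Orc1l), the origin recognition subunit that cycles with cell division, had 6, 38 and 74 counts, or 0.312 ± 0.24 RPKM. It was called below 1 RPKM (edgeR adjusted p = 0.0443). Whether calls in these further lists hold with a library left out was not examined. Of 32 other mitotic genes, 16 were above (50.0%), 1 was below and 15 were unresolved, with a median of 1.56 RPKM. Bub3 led them at 34.9 ± 5.41 RPKM, followed by the condensin genes Smc4 at 25.4 ± 1.51 and Smc2 at 10.7 ± 1.08. The gene called below was Espl1, which encodes separase, with 116, 67 and 26 counts, or 0.284 ± 0.21 RPKM (edgeR adjusted p = 0.00224).

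Partners and brakes of the E2F and Rb system were also measured. Among 14 further E2F, Rb and MuvB genes, 7 were above (50.0%, beside 39.4% of all 23048 genes with a length), 3 were below, 3 were unresolved and 1 was at 0. The Rb relative Rbl2, which is abundant in resting cells, led at 17.0 ± 0.95 RPKM, followed by the E2F partner Tfdp1 at 16.2 ± 0.55 and Lin52 at 7.23 ± 2.31. The genes called below were E2f7, Mybl2 and Lin54. E2f7 had 45, 34 and 46 counts (edgeR adjusted p = 0.0281) and Mybl2 25, 15 and 15 counts (edgeR adjusted p = 0.0413). Whether these calls hold with a library left out was not examined. Lin54, and E2f6, which was at 0, have 2 rows each, so neither is read as a low level. Of 7 CDK inhibitor genes, 5 were above (71.4%) and 2 were unresolved, with Cdkn2b at 101 ± 3.50 RPKM, Cdkn1b at 36.5 ± 2.42 and Cdkn2a at 22.6 ± 2.08 (2 rows). Cdkn2b, which blocks Cdk4 and Cdk6, thus had a higher level per length than Cdkn1b, which blocks Cdk2.

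Histone genes of the replication-dependent clusters, whose RNA mostly lacks a poly(A) tail and is kept by ribosomal RNA depletion, were measured beside them. They were listed by symbol, from Hist1h to Hist4h, so the list also holds pseudogenes such as Hist3h2bb-ps. Which of them are polyadenylated was not tested. Of 64 listed symbols with a length, 58 were above 1 RPKM (90.6%, beside 39.4% of all 23048 genes). Another 3 were unresolved and 3 were at 0, and the median over the 64 was 30.0 RPKM. Hist2h2bb had 788 ± 114 RPKM, Hist2h2aa1 644 ± 129 and Hist2h2aa2 624 ± 125. Their coding sequences are nearly identical within families, so the split between single histone genes is uncertain. Some H2A genes had nearly the same counts, such as 1951, 3239 and 3135 for Hist1h2ab and 1946, 3217 and 3086 for Hist1h2ag. Whether shared reads were counted for more than 1 gene was not tested, so the calls may not be independent. Summed over the clusters the genes had 2341, 3164 and 2840 CPM in replicates 1, 2 and 3, highest in replicate 2. That sum may hold the same reads more than once.

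**Figure D5:**
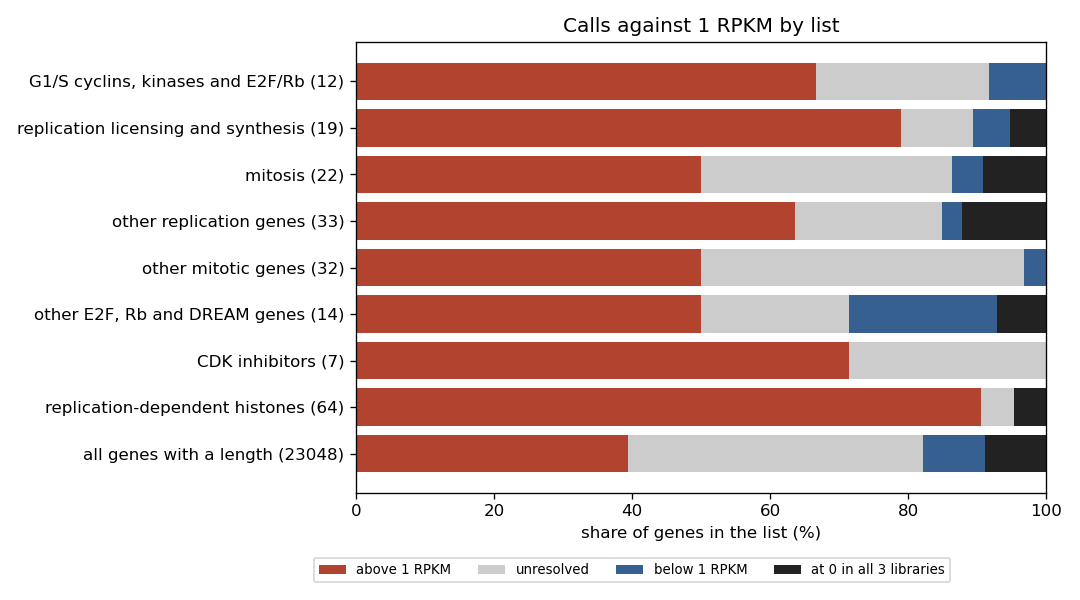
Share of genes (percent) called above 1 RPKM, unresolved, below 1 RPKM or at 0 in all 3 libraries, for the 3 roles, the further lists and all 23048 genes with a length; the number of genes is in brackets. Replication genes have 78.9% above and mitotic genes 50.0%, beside 39.4% of all genes.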

How the data were processed

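RNA-seq was measured in 3 PTH-treated libraries (1 group). Ribosomal RNA-depleted total RNA was made into strand-preserving libraries, per the labels' protocols; TopHat and mm9 were used, per the submitters' processing notes. The deposited tables are named for RPKM but hold whole-number counts (30795 rows), which were used as raw counts; every RPKM rests on that reading. No source used here gives the counting tool, annotation or use of strand.

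Rows were summed per symbol. Lengths were median basic transcripts of GENCODE M21 (GRCm38), found for 23048 of 25410 symbols (96.4% to 96.5% of counts). Levels were tested against 1 RPKM with edgeR 4.0.16 (quasi-likelihood, trended dispersion, robust, Poisson bound, Benjamini-Hochberg over all genes above 0 in at least 1 library), in R 4.3.3, tested on simulated data. Alternatives were limma 3.58.1, DESeq2 1.42.0, TMM, other lengths, row means, no filter and leaving out libraries. Ratios used log2(RPKM + 0.1), which understates folds of low genes. All members, and the top 3 genes of each further list, are named by rule; other genes were named after their values were seen. Members and lists were chosen with earlier results of these data known. Upper limits for a count of 0 cover counting error only. Depth was 35195518 to 45240005 counts per library. Promoter windows come from RefSeq (GRCm38.p6).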

Additional observations from a re-analysis of the deposited data

How the results depend on the processing

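The count of members above 1 RPKM was 34 and lay between 32 and 35 under all alternatives run, with 32 to 34 when 1 library was left out. The counts above by role stayed at 8 for G1/S genes and 15 for replication genes, and were 9 to 12 for mitotic genes. The count below was less stable: it was 3, and 0 to 2 with 1 library left out (0 without replicate 2, 1 without replicate 1), 1 with the shortest transcripts, 6 with no filter, where the 3 members at 0 enter the test, and 10 with limma and with DESeq2 each, for which the cause was not tested. Over all genes the count below was 2077 with edgeR, 9603 with limma and 6495 with DESeq2. Restricting to symbols with 1 row, chosen after seeing the data, left 34 above and 3 below. Members with several rows had no call in the same fit, so these counts could not change and are no check. Reversed values were the log2 ratio of Ccnd2 over Ccnd1 (−0.16 with the longest transcripts), that of Gmnn over Cdt1 (−0.082 without replicate 2, and up to 0.70 without replicate 1), and the log2 level of Birc5 (−0.13 with all libraries, 1.04 with the shortest transcript, and −0.31 to 0.00034 with 1 library left out). No paired analysis was possible because the design has 1 group. For Foxm1, Plk1, Tk1 and Ccnb2, members with few counts, counting error alone gives a CV of 14.6% to 20.1%, below their CVs between libraries (53.2% to 79.8%).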
